A study of Mus musculus with 1536 samples.

Results

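Serotonin neurons that carry the RNA of both Crhr2 and Npy2r made up 107 of the 709 cells of a mixed raphe dissection, 15.1% (exact Clopper-Pearson 95% interval 12.5 to 17.9%). The whole series holds 999 cells. The members were chosen by their values of 3 genes: at least 5 CPM of Crhr2, at least 5 CPM of Npy2r and under 5 CPM of Irx2, where CPM stands for counts per 1000000 reads on genes in that cell. The levels of these 3 genes are therefore given as a description only. Every cell came from C57BL/6J mice 40 to 45 days old of the cross the labels name Sert-tdTomato-Cre with Ai14, in which Cre driven by regulatory sequence of Sert (Slc6a4, the serotonin transporter) turns on the red protein tdTomato for good, also in a cell that used the promoter only earlier in life. Single tdTomato+ cells were sorted into wells and each was made into a Smart-seq2 library, a full-length cDNA method without molecular identifiers. The mixed dissection bears the region label All DR, and the study's methods add that it took in the caudal dorsal raphe and the median raphe (MR), while the principal dorsal raphe was also dissected alone. The labels name plates but not animals, so each dissection counted as a single sample. Cells were not tested against each other, and the agreement between plates, which are not known to be separate animals, is given instead.

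Crhr2 encodes a receptor of the CRF and urocortin peptides, which couples to the cyclic AMP pathway and takes part in stress responses. Npy2r encodes a receptor of neuropeptide Y and peptide YY that inhibits cyclic AMP and often sits on axon terminals, where it holds back release. Irx2 encodes a homeodomain transcription factor. Serotonin neurons of the raphe make serotonin with the enzymes Tph2 and Ddc, fill vesicles with it through Slc18a2 and take it up again through Slc6a4, and some of them also carry a vesicular glutamate transporter, GABA-synthesising enzymes or neuropeptides.

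Among members the median level of Crhr2 was 73.2 CPM (8.03 to 229) and that of Npy2r was 49.0 CPM (7.12 to 248). Just inside the limit for Crhr2 stood members at 8.03, 11.0 and 12.3 CPM, and just outside it all 29 cells with Npy2r but not Crhr2 were at 0. For Npy2r the lowest members had 7.12, 7.39 and 7.55 CPM, and of the 127 cells with Crhr2 but not Npy2r, 119 had no read and the highest had 4.58, 4.03 and 3.22 CPM. Few cells thus lay near a limit. Of Irx2, 1 member had a read, at 4.59 CPM, and the 7 cells that Irx2 alone kept out had 7.66 to 46.1 CPM.

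**Figure D1:**
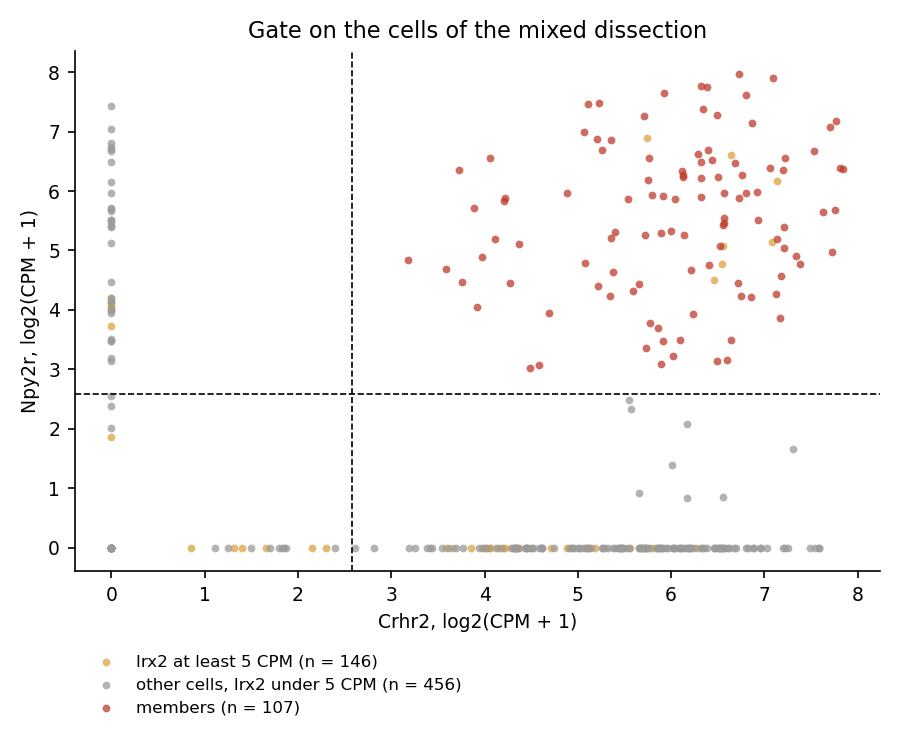
Levels of Crhr2 (x axis) and Npy2r (y axis) as log2(CPM + 1) in each of the 709 cells of the mixed dissection, with dashed lines at 5 CPM. The 107 members fill the upper right, and most cells outside the gate lie on an axis at 0.

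The share of members ran from 0% to 21.3% over the 11 plates of the mixed dissection, with a median of 16.2%. On plate SER56 none of 27 cells was a member and on SER67 there were 2 of 30, so these plates entered no contrast. The other 9 plates held 4 to 17 members each. Of the 136 cells with Npy2r and without Irx2, 107 also had Crhr2 (78.7%, 70.8 to 85.2%), and of the 234 cells with Crhr2 and without Irx2, 107 also had Npy2r (45.7%, 39.2 to 52.3%). In the principal DR dissection the same gate held 62 of 290 cells (21.4%, 16.8 to 26.6%), with plates at 3.57 to 30.2%.

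The members bore the marks of serotonin neurons. All 5 serotonin markers were measured, and none differed in mean by 2-fold. Tph2 stood at 12974 CPM in members against 9690 CPM in the other cells (log2 ratio 0.42 ± 0.15, SD over 9 plates) and Slc6a4 at 4792 against 3428 CPM (0.48 ± 0.09), both above on 9 of 9 plates, while Slc18a2, the vesicular monoamine transporter, was below on all 9 (2379.6 against 3046 CPM, -0.35 ± 0.14). Oligodendrocyte and microglial markers summed to medians of 21.5 and 56.6 CPM in members against 24.8 and 55.7 CPM in the other cells. Astrocyte markers summed to 934 against 719 CPM and were higher in members on 9 of 9 plates. Only Aldoc and Slc1a2 of the 8 were high enough to compare, and Gfap was at 0 in every member. Endothelial and mural, oligodendrocyte precursor and catecholamine markers had medians of 0 in both. Immediate-early genes, which mark recent activity or dissociation, summed to 371 CPM in members against 507 CPM and were lower on all 9 plates. Members were also deeper, with a median of 1011395 reads on genes against 839792 in the other cells (deeper on 8 of 9 plates), and 10211 against 9353 detected genes (more on 9 of 9). Reads per cell were inferred from the CPM. Thinned to 250000 reads per cell, the medians were 9121 and 8578 genes. The part of depth and of activity genes in what follows was not tested, apart from a recount on thinned cells.

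Which genes set these neurons apart from the rest of the raphe was asked by comparing members with all other cells of the same plate. For each of the 9 plates the log2 ratio of mean CPM plus 1 was taken, and the ratios were averaged with equal weight. A gene was called where this mean was at least 1 in size, a 2-fold difference, and every plate had the same sign. Of 9614 genes with enough reads, 41 were higher in members (0.426%) and 94 were lower (0.978%). The median ratio of all these genes was -0.07. Enough reads meant a mean of both sets of at least 5 CPM. In this and later comparisons a gene nearly absent from one set therefore entered only through the other. The filter then fixed its direction, which is no support. Between plate means, the ranges of members and other cells did not overlap for 140 of the 9614 genes (1.46%), for 22 of the 41 higher genes and for 62 of the 94 lower ones. The called genes were chosen on these same plate means, so their larger share was built in and is no support. Taken as differences of mean log2(CPM + 1), which weight the number of cells with a gene more than its height, the median of all genes moved to 0.15 and the calls became 211 higher and 44 lower, so that 82.7% of calls were higher, against 30.4% with mean CPM.

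The genes highest over the other cells included a receptor of serotonin, a receptor of orexin and a glutamate transporter. Htr5b, a serotonin receptor, had a plate mean of 78.3 to 124 CPM in members (median 90.9) and of 12.4 to 30.6 CPM in the other cells (median 21.5). The plates did not overlap, and the log2 ratio was 2.11 ± 0.36. Hcrtr2, a receptor of the wake-promoting orexin peptides, ran from 39.0 to 85.1 CPM (median 63.0) in members and from 7.55 to 19.1 CPM (median 14.3) in the other cells, a ratio of 2.01 ± 0.53, again with no overlap. It had a read in 99.1% of members and 36.2% of the others, and after thinning in 99.1% and 34.8%. Slc17a8 encodes VGLUT3, the vesicular glutamate transporter of serotonin neurons, and was at 175 to 299 CPM (median 208) in members and 60.8 to 121 CPM (median 76.2) in the other cells (1.48 ± 0.39). Its plate means did not overlap either.

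A list drawn up for the ventral DR and for Crhr2, partly from the study's text and partly from earlier results on these cells, had 6 genes with enough reads, of which 5 were higher and none was lower, with a median ratio of 1.36. Crhr2 is a gene of the gate and the list rests on these cells, so it is not independent evidence. Besides the 3 genes above it holds Esr2, an oestrogen receptor (11.2 to 20.9 CPM against 4.06 to 8.69 CPM, ratio 1.25 ± 0.50), and Sox1, a transcription factor of neural progenitors (7.31 to 14.6 against 3.90 to 5.52 CPM, 1.06 ± 0.39). For both, each plate mean of members was above each of the other cells. Cckar, a cholecystokinin receptor, was not called, at 8.05 against 3.82 CPM and higher on 5 of 9 plates.

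The promoters of Hcrtr2 and Slc17a8 are shown because members also had more of both oestrogen receptors, Esr1 and Esr2, than the other cells. These are nuclear receptors whose half-site is the word AGGTCA. Neither was called against cells with Crhr2 but not Npy2r (log2 ratios of 0.65 and 0.26) or in the principal DR dissection (0.83 and 0.52). RefSeq promoters of GRCm38.p6, from 250 bases before to 50 after each start, were searched on both strands for AGGTCA, which is TGACCT on the other strand. The window of Hcrtr2 is chr9:76323574-76323873 on the minus strand, and its single match, in capitals, begins 170 bases before the start. The window of the start of Slc17a8 that lies farthest upstream is chr10:89621200-89621499 on the minus strand and holds no match.
Hcrtr2: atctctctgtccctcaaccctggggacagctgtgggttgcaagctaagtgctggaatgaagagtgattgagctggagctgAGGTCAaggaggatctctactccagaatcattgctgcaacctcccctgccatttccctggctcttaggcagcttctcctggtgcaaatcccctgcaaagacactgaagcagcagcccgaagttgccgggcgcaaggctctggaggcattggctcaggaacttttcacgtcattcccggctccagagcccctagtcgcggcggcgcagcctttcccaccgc
Slc17a8: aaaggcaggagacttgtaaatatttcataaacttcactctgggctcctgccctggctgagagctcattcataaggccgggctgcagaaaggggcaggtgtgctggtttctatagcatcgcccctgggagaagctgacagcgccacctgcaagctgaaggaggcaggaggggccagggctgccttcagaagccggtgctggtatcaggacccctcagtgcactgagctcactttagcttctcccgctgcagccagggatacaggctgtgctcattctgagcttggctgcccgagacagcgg
The word was in 16.3% of all 32851 promoters, in 11.9% of the 9793 promoters of genes compared, in 3 of 38 promoters of the higher genes (7.89%) and in 13 of 94 of the lower genes (13.8%). A palindrome of the half-site was in 23 of all promoters and in 1 of those of genes compared. It was in 0 promoters of the higher genes and 0 of the lower genes. A match is a word in the sequence and not a site known to be bound.

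Among all 9614 genes compared, 0.426% were called higher and 0.978% lower, and whether any list differed from these shares was not tested. Of 17 peptide receptors measured, Hcrtr2 alone was higher, and Calcr, Pth2r and Rxfp1 were lower. Pth2r and Rxfp1 entered only through the other cells, so the filter fixed their direction. Of 28 genes of RGS and G-protein signalling, 2 were higher and 1 lower. Plcb1, a phospholipase C that acts behind receptors coupled to Gq, was at 23.4 to 42.7 CPM against 5.53 to 11.0 CPM (2.00 ± 0.34), with no overlap, and Rgs2, which shortens signals of Gq, was at 179 against 69.0 CPM (1.36 ± 0.43). The lower gene was Rgs9 (18.9 against 37.9 CPM, -1.01 ± 0.46). Among 5 neuropeptides Gal, which encodes galanin, was the one called (36.7 against 11.6 CPM, 1.50 ± 0.78). Its plate means overlapped, at 12.6 to 51.5 CPM in members and 8.32 to 18.3 CPM in the other cells. Of 4 serotonin receptors only Htr5b was called. The autoreceptor Htr1a had 74.5 CPM in members and 125 CPM in the other cells (-0.72 ± 0.34, lower on 9 of 9 plates), and the terminal receptor Htr1b had 33.9 and 21.2 CPM (0.65 ± 0.28, higher on 9 of 9), both short of 2-fold.

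Transcription factors and surface molecules were called in both directions. Of 24 transcription factors of neuron subtypes, 4 were higher, with Esr1, Esr2 and Sox1 among them, and 4 were lower. Of the lower ones, Zeb2, Bcl11b and Pou3f1 entered only through the other cells, so the filter fixed their direction. Esr1 had 7.88 to 22.9 CPM in members and 3.79 to 7.00 CPM in the other cells (1.25 ± 0.54). Of 84 genes of axon guidance and adhesion, 3 were higher and 8 lower, where 0.426% and 0.978% of all compared genes were. The highest was Sema3c, a secreted guidance molecule, at 7.31 to 41.0 CPM against 0.527 to 7.96 CPM, which overlapped (2.54 ± 1.27). Sema3c entered only through members, so the filter fixed its direction. It was followed by the cadherin Cdh8 (33.1 against 12.8 CPM, 1.38 ± 0.80) and by Cbln2, a synapse-organising protein (238 against 108 CPM, 1.09 ± 0.48). Of 5 neurofilament genes, Nefm was called (170 against 76.2 CPM, 1.03 ± 0.58), and Nefl and Nefh stood higher on 9 of 9 plates by 0.79 ± 0.40 and 0.72 ± 0.19.

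Most of the other leading higher genes belonged to no list. Gsta4, a glutathione transferase, had 200 CPM in members and 56.6 CPM in the other cells (1.84 ± 0.32), Kcnab1, a potassium channel beta subunit, had 79.9 and 25.9 CPM (1.67 ± 0.66), and the interferon-related gene Oasl2 had 79.1 and 24.2 CPM (1.65 ± 0.45). The class I histocompatibility gene written H2.Q2 in the table had 29.2 and 8.24 CPM (1.69 ± 0.56). It has near-identical relatives between which reads can be split, so its value is uncertain. Gabrg3, a GABA-A receptor subunit, had 45.5 and 14.8 CPM (1.57 ± 0.46). For these 5 genes no plate mean of members fell among those of the other cells. Mlip, Nxn, Adgrl2, Tgfa and Stk32b completed the 20 named, with ratios of 1.45 to 1.78. Mlip, at 2.71 CPM in the other cells, entered only through members, so the filter fixed its direction. Stk32b, a kinase, had a read in 100% of members and 76.1% of the other cells.

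**Figure D2:**
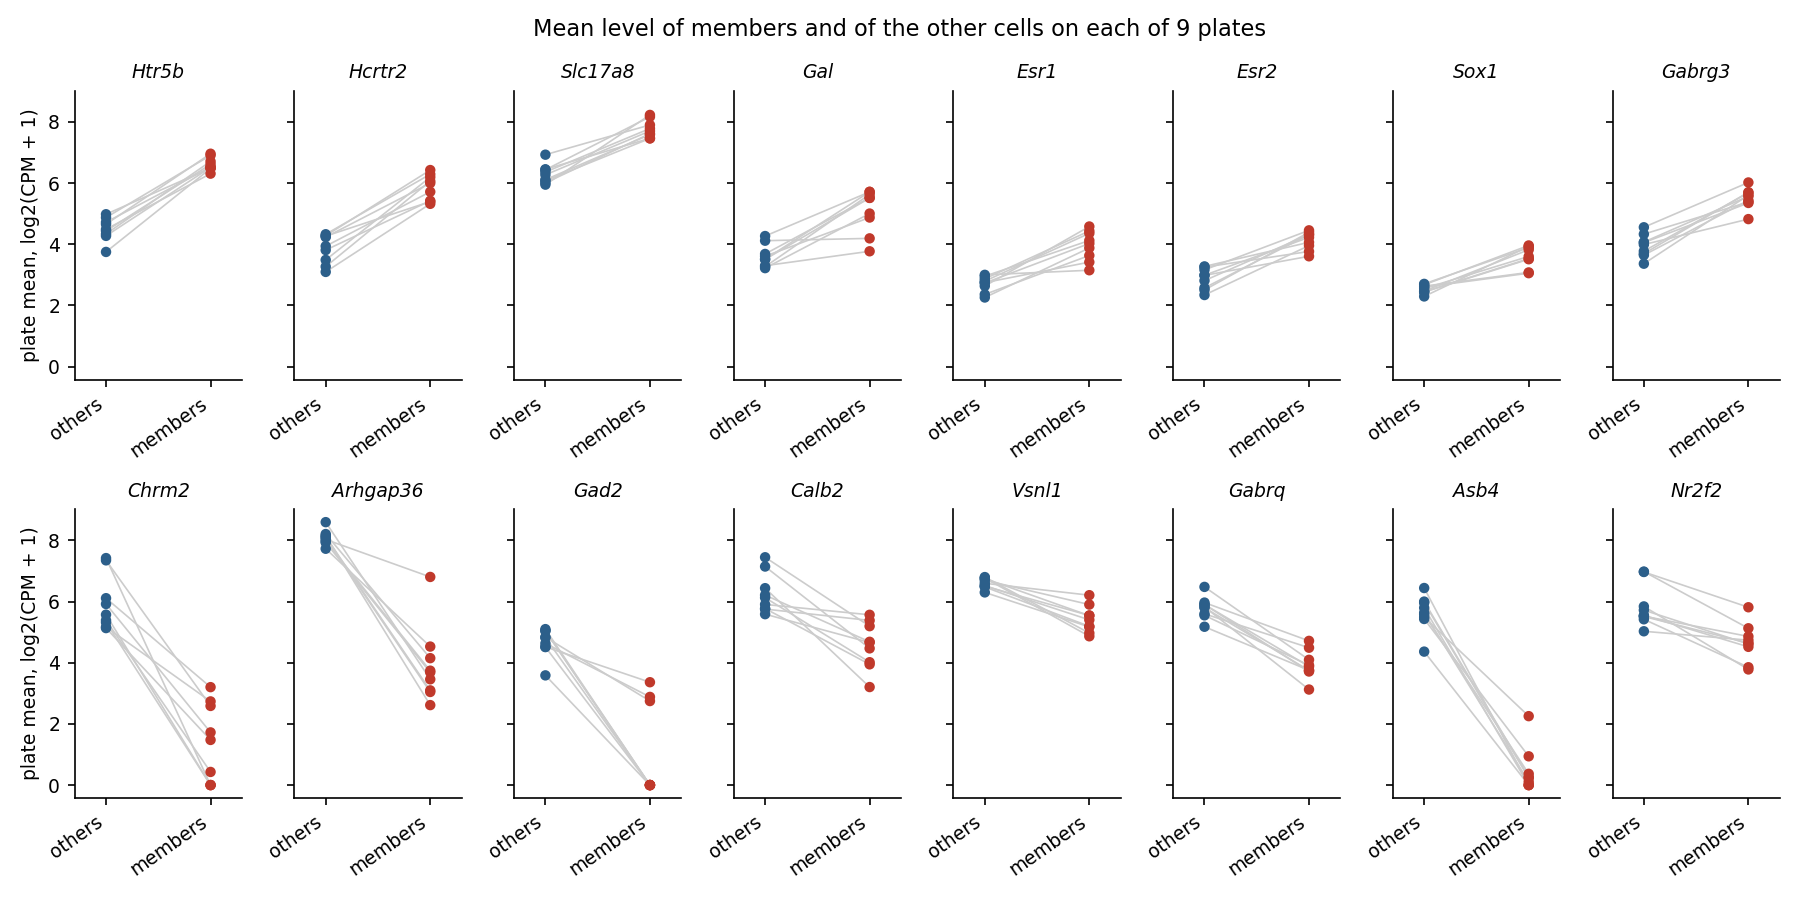
Mean level of 16 named genes as log2(CPM + 1) on each of 9 plates of the mixed dissection, in the other cells (blue) and in members (red), with a grey line joining the same plate. Every line rises in the top row and falls in the bottom row, and Gad2, Asb4 and Chrm2 reach 0 in members on some plates.

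Gad2, a GABA-synthesising enzyme, had plate means of 0 to 9.30 CPM in members (median 0) and of 11.0 to 33.3 CPM in the other cells (median 27.3), with a ratio of -3.68 ± 1.60. It had a read in 4.67% of members and 25.2% of the others. With so little in members, Gad2 entered only through the other cells, so the filter fixed its direction. Its partner Gad1 had 2.39 against 12.1 CPM but was higher in members on 1 plate, so it was not called. Of 6 genes of small transmitters, 1 was higher, Slc17a8, and 2 were lower, Gad2 among them. Of 33 glutamate and GABA receptor genes, Gabrg3 was higher and 3 were lower, among them Grik1 (-3.05 ± 1.63) and Gabrq (-1.86 ± 0.54). Gabrq had 15.1 CPM in members and 56.3 CPM in the other cells.

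The 20 genes lowest in members were mostly at or near 0 there. Those near 0 entered the comparison only through the other cells, so their direction was fixed by the filter and is no support. Asb4, which encodes a protein of ubiquitin ligases, had plate means of 0 to 3.77 CPM in members and of 19.6 to 86.1 CPM in the other cells (-5.17 ± 0.98). Chrm2, a muscarinic acetylcholine receptor, ran from 0 to 8.21 CPM against 34.1 to 171 CPM (-4.58 ± 1.51), and Arhgap36 from 5.13 to 111 CPM against 211 to 387 CPM (-4.19 ± 1.32). None of the 3 overlapped. Of 10 amine and acetylcholine receptors, Chrm2 and Chrna4, a nicotinic receptor subunit (14.7 against 39.5 CPM, -1.62 ± 0.97), were the 2 called, both lower. Pter, Fam19a2, Kctd8, Col28a1, Sostdc1, Ctla2a, Ncam2, Pdgfd and Igsf1 were also among the 20, with ratios of -3.84 to -2.95. Pter ends at chr2:13003455, beside C1ql3, another of the 20, which lies on the opposite strand from chr2:13003457. Counting ignored strand, and whether these neighbours share reads was not tested. The calcitonin receptor Calcr overlapped between the sets (0 to 25.6 against 10.0 to 132 CPM, -3.31 ± 1.91), and the peptide receptor Pth2r did not (0 to 4.94 against 9.00 to 15.4 CPM, -2.85 ± 0.73).

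A list drawn up in the same way for the MR and caudal DR holds 12 genes. Only 5 had enough reads, and since members had little of them these 5 passed through the other cells, so their direction was fixed by the filter and is no support. All 5 were lower: Chrm2, Pth2r, the transcription factors Zeb2 (0.00537 against 13.4 CPM, -3.52 ± 0.96) and Bcl11b (0.0270 against 12.0 CPM, -3.27 ± 1.04), and the mechanically gated channel Piezo2 (0.0628 against 10.7 CPM, -3.11 ± 1.09). Zeb2 and Bcl11b each had a read in 0.935% of members, and in 24.3% and 24.4% of the other cells. The other called transcription factors were Pou3f1 (1.86 against 19.4 CPM, -2.80 ± 1.16) and Nr2f2 (26.5 against 63.0 CPM, -1.18 ± 0.57). Of 6 genes listed for the dorsal DR, Gad2 was called, lower. Trh, which encodes the peptide TRH, had 0.285 CPM in members and 17.4 CPM in the other cells, but 1 plate went the other way. Of 5 genes listed for a cluster of the MR, Gal was higher and the chemokine Cxcl12 lower (0.505 against 21.1 CPM, -3.75 ± 1.39), and of 4 listed for another DR cluster none was called. Among the guidance and adhesion genes C1ql3 (0.0170 against 25.7 CPM, -4.17 ± 1.24), C1ql1, Nrp1, Pcdh20, Sema6a, Flrt3 and Ephb6 joined Cxcl12 below. Of these, C1ql3, C1ql1, Nrp1 and Cxcl12 entered only through the other cells, so the filter fixed their direction.

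In the remaining lists 0 to 2 genes were called. None of 9 genes of serotonin metabolism was called, although Maob, which breaks down amines, was higher on 9 of 9 plates (1419 against 864 CPM, 0.72 ± 0.14) and Slc22a3, a low-affinity amine transporter, lower on 9 of 9 (-0.84 ± 0.28). Of 35 potassium channel genes Kcns2 was lower (-1.23 ± 0.53), and of 36 sodium, calcium, HCN and TRP channel genes Piezo2 was. Of 12 calcium-binding proteins Calb2 (25.7 against 84.0 CPM, -1.70 ± 1.00) and Vsnl1 (43.7 against 96.9 CPM, -1.18 ± 0.47) were lower. Of 21 vesicle genes Stxbp6 was lower (-2.72 ± 1.73), of 12 immediate-early genes, whose median ratio was -0.49, Egr1 was (7.75 against 17.9 CPM, -1.30 ± 0.86), and none of 11 peptide-processing genes was called. CRF, neuropeptide Y and their kin, like Hox genes, had too few reads to compare.

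Members were next compared with cells that had Crhr2 but not Npy2r. Against the 117 of these 127 cells that lay on the same 9 plates, 10 genes were higher in members (0.105% of 9563) and 15 were lower (0.157%). With size factors by the median of ratios, 59.1% of the calls were higher, against 40.0% with CPM. Tpbg, a surface glycoprotein, was highest (40.8 against 10.6 CPM, 2.25 ± 1.95), followed by Tmeff2 (53.3 against 16.5 CPM, 1.71 ± 0.90). Tpbg was called lower in members than in cells with Npy2r but not Crhr2 (-2.25). It was also called lower in the gated cells of the principal DR dissection than in its other cells (-2.21). Plcb1 was at 35.5 CPM against 14.0 CPM (1.39 ± 0.73), Cbln2 at 238 against 96.5 CPM (1.33 ± 0.48), and Cdh8, Adgrl2 and Kcnab1 had ratios of 1.41 to 1.45. The potassium channel genes Kcnc2 (1.13 ± 0.86) and Kcnf1 (1.09 ± 0.63) and the desaturase gene Scd3 were the others. Of the other genes that led the first comparison, Sema3c had a ratio of 2.15 here, Gabrg3 of 1.23, Htr5b of 0.69, Hcrtr2 of 0.70, Slc17a8 of 0.33 and Gal of -0.15, and none of these 6 was called. Esr1 (0.65), Esr2 (0.26), Rgs2 (0.18) and Sox1 (0.087) were not called either. Lower in members were Arhgap36 (22.7 against 209 CPM, -3.50 ± 1.14), Chrm2 (2.59 against 17.6 CPM, -2.52 ± 1.70), the metalloproteinase Adamts2 (1.91 against 15.1 CPM, -2.26 ± 0.97) and Rab3b, a vesicle GTPase (42.4 against 144 CPM, -1.82 ± 0.54). The GABA-A subunits Gabre (-1.84 ± 0.87) and Gabrq (-1.22) were lower too, as were Igsf1, Fstl5, Ramp1, Stxbp6 and Tle2. Chrm2, Adamts2, Gabre, Igsf1, Ramp1 and Tle2 entered only through the cells without Npy2r, and Scd3 only through members. The filter fixed the direction of these genes. Without plate SER60, 26 genes were lower in place of 15.

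The 29 cells with Npy2r but not Crhr2 were compared on the 5 plates with at least 3 cells of each kind, which held 24 of them. Of 9562 genes, 123 were higher in members (1.29%) and 112 lower (1.17%). A same sign on every plate is easier to meet on 5 plates than on 9, so these counts cannot be set against those above. With differences of mean log2(CPM + 1), 394 were higher and 83 lower, so that 82.6% of calls were higher, against 52.3% with mean CPM. Gal had 45.5 CPM in members and 1.38 CPM in these cells (4.69 ± 1.16). Rorb, an orphan nuclear receptor, had 41.4 and 3.10 CPM (3.79 ± 1.74), the receptor tyrosine kinase Kit 45.9 and 5.66 CPM (3.57 ± 1.56), and Esr1 16.7 and 2.14 CPM (3.08 ± 1.75). H2.Q2, Oasl2, Slc39a12, Rerg, Spsb1 and Cpne9 were the other leading higher genes, with ratios of 3.05 to 4.11. On the lower side Asb4 had 0.108 CPM in members and 181 CPM in these cells (-6.43 ± 2.03), and Rprm, a cell-cycle regulator, had 0.663 and 98.2 CPM (-5.86 ± 1.29). Dlk1, a ligand related to those of Notch, followed (7.91 and 204 CPM, -4.65 ± 0.53), and then Calcr (13.6 and 223 CPM, -4.56 ± 1.73). Ldb2, Fam19a2, Gpc5, Kctd8, Erbb4 and the serotonin receptor Htr7 had ratios of -4.34 to -3.71. Gal, Rorb, Esr1, H2.Q2, Slc39a12, Spsb1, Asb4 and Rprm entered only through the set where they were high, so the filter fixed their direction. Of 88 guidance and adhesion genes 1 was higher and 17 were lower. The count of lower genes was 178 without plate SER51, in place of 112, and that of higher genes 153 to 184 with a plate left out.

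The sets were also set side by side by their shares of cells with at least 5 CPM. Slc17a8 was at that level in 98.1% of members (93.4 to 99.8%), 87.4% of cells with Crhr2 only, 86.2% of those with Npy2r only and 65.0% of all other cells. Hcrtr2 was in 99.1%, 72.4%, 51.7% and 33.6%, and Gad2 in 4.67%, 11.0%, 31.0% and 23.6%. Gal and Rorb set the small Npy2r-only set apart, at 6.90% and 10.3% of its cells, against 64.5% and 44.9% of members. The intervals cover counting error over cells only and take no account of the plates or animals that cells share.

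**Figure D3:**
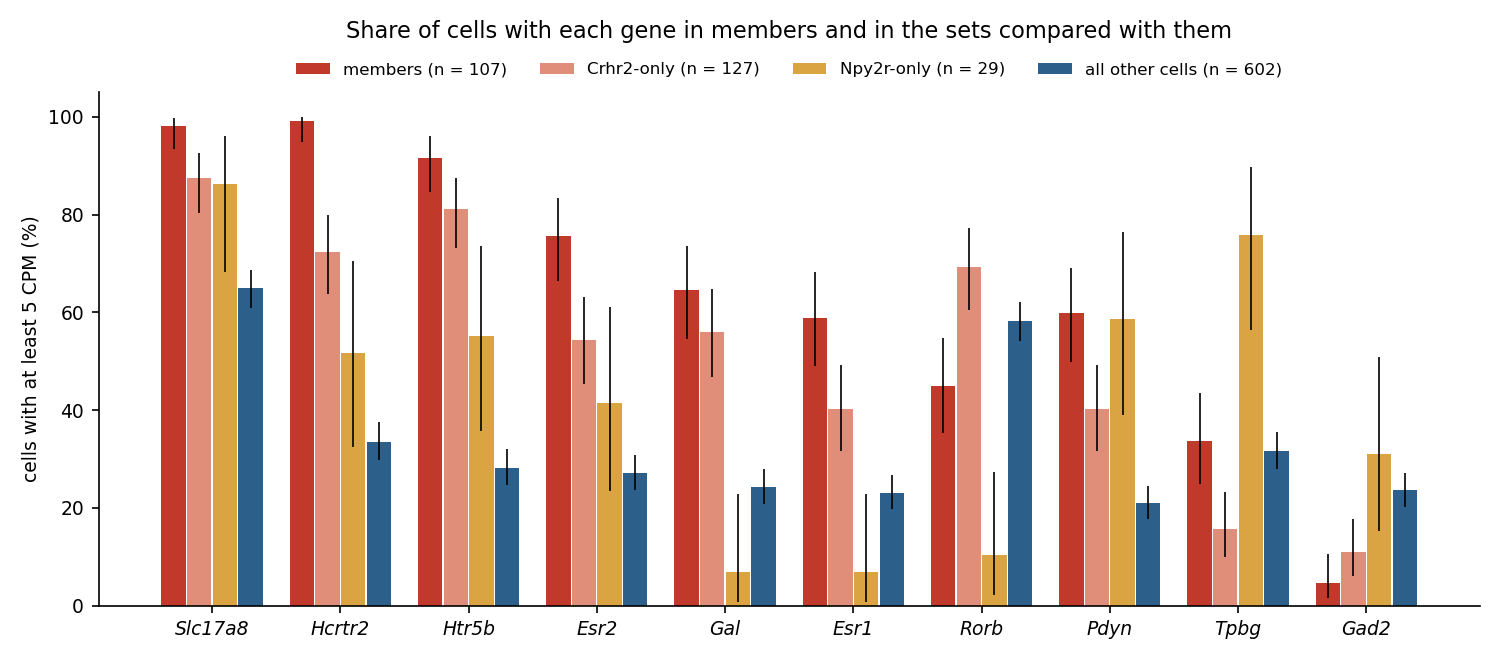
Percentage of cells with at least 5 CPM of 10 genes in members, in cells with Crhr2 only or Npy2r only, and in all other cells of the mixed dissection, which include the latter sets; bars start at 0 and black lines are exact 95% intervals. Hcrtr2 falls from 99.1% of members to 33.6% of all other cells, and Rorb is at 10.3% in Npy2r-only cells.

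The same gate was applied to the principal DR dissection, whose cells are none of the above, after the values of the mixed dissection had been seen. On its 4 plates with enough cells, 46 of 9649 genes were higher in the gated cells than in the others (0.477%) and 128 were lower (1.33%). Over all 9649 genes, 43.8% had a ratio above 0. Of the 41 genes higher in the mixed dissection, 36 were above 0 there and 14 were called higher, which is 34.1% of the 41 and 30.4% of the 46. Of the 94 lower genes, 85 were below 0 and 35 were called lower, 37.2% of the 94 and 27.3% of the 128. Plcb1, Htr5b, Hcrtr2 and Slc17a8 had ratios of 2.02, 1.91, 1.44 and 1.67, and Arhgap36, Asb4, Fam19a2 and Chrm2 of -4.78, -3.80, -3.12 and -2.19. Near 0 were genes such as Zeb2 (-0.12), Piezo2 (0.13), Egr1 (0.063) and Kcns2 (0.064), while Rxfp1 (0.51) and Stxbp6 (0.39) lay on the other side. Called on opposite sides were Amigo2, an adhesion molecule, at 388 against 190 CPM in the mixed dissection (1.03 ± 0.26) and 132 against 306 CPM here (-1.23 ± 0.22), and Nr2f2, lower in the mixed dissection and 18.6 against 6.07 CPM here (1.51 ± 0.86).

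**Figure D4:**
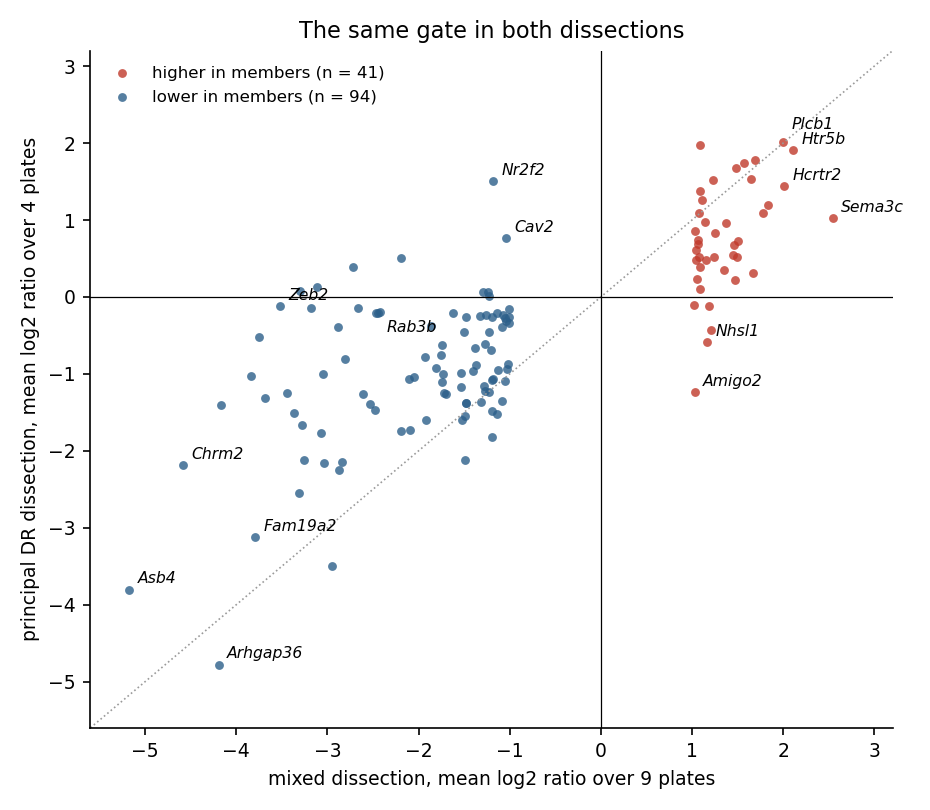
Mean log2 ratio of gated cells over the other cells for the 135 genes called in the mixed dissection (x axis, 9 plates) against the same ratio in the principal DR dissection (y axis, 4 plates); the dotted line marks equal ratios. Most genes keep their side, 36 of 41 and 85 of 94, with smaller ratios, and Nr2f2 and Amigo2 lie on the opposite side. Of all genes compared in the principal DR dissection, 43.8% were above 0.

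The members were not alike among themselves. Among 5845 genes with a mean of at least 20 CPM, the SD of log2(CPM + 1) over members within plates had a median of 0.81. The most variable were Ighm (3.60), an immunoglobulin gene read here at up to 791 CPM, Tpbg (3.15), Rorb (3.13), Ifi27 (3.06), Cd59a (3.05) and Pdyn (2.98), the precursor of dynorphin. Each was absent from many members and high in others: Rorb had no read in 51 members, at least 5 CPM in 48 and at least 100 CPM in 25, and Pdyn had no read in 40 and at least 5 CPM in 64. Serpinf1, Tmem255a, the protocadherins Pcdh17 and Pcdh8, Sln, Prph, Tmeff2, the adenylyl cyclase Adcy2 and Gal followed, with SDs of 2.70 to 2.90. Tmem255a differed in shape, with 11 members without a read and 95 at 100 CPM or more. Over the 105 members of the 9 plates, and with plate means removed, the correlation of Tpbg with Pcdh17 was -0.60, of Pdyn with Pcdh17 -0.54, of Rorb with Pdyn -0.49, of Rorb with Pcdh17 0.43 and of Rorb with Gal 0.39. These are correlations across cells that share plates and depth, so they are given without a p-value. The correlation of these genes with the number of reads was between -0.19 and 0.18.

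**Figure D5:**
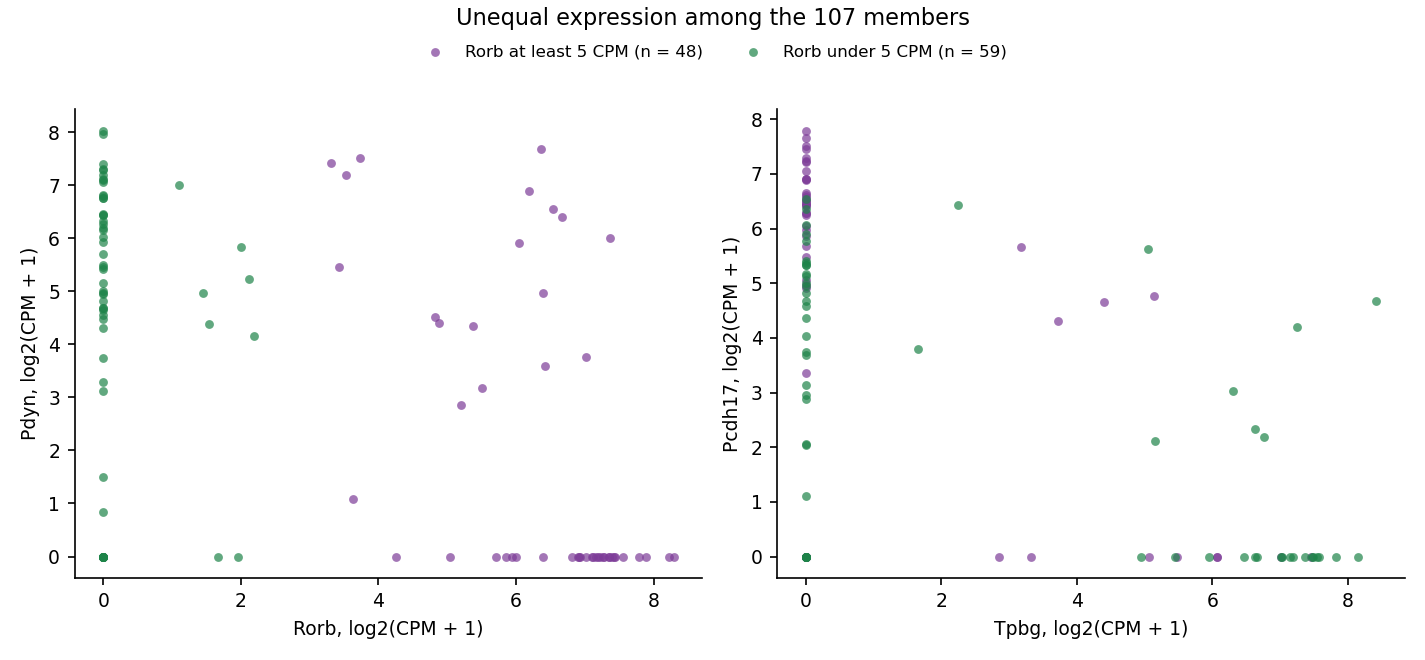
Levels as log2(CPM + 1) in each of the 107 members, of Pdyn against Rorb (left) and of Pcdh17 against Tpbg (right), coloured by whether Rorb is at least 5 CPM (48 members) or under it (59). Many members with high Rorb lie at 0 for Pdyn, and many with high Tpbg lie at 0 for Pcdh17.

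Members with and without Rorb were compared after this spread had been seen, as a description, on 6 plates. Of 9423 genes, 51 were higher with Rorb (0.541%) and 55 lower (0.584%), with median depths of 1036880 and 974685 reads. Adcyap1, which encodes the peptide PACAP, had 55.9 CPM with Rorb and 0.678 CPM without it (5.15 ± 1.26) and a read in 56.3% and 6.78% of the cells. Ppp1r17 (3.19 ± 0.81), Fst, which encodes follistatin (2.70 ± 1.40), Nr2f2 (39.3 against 9.14 CPM, 2.24 ± 1.22) and Pcdh17 (2.05 ± 0.89) were higher as well. Lower were the protocadherin Pcdh11x (2.68 against 29.1 CPM, -3.52 ± 1.40), the intermediate filament Prph (5.50 against 54.3 CPM, -3.13 ± 1.78), Cckar (0.566 against 12.6 CPM, -2.63 ± 1.97) and Tpbg (-2.50 ± 2.89). Adcyap1, Ppp1r17, Fst, Pcdh11x and Cckar entered only through the set where they were high, so the filter fixed their direction. At 5 CPM or more, Gal was in 85.4% of members with Rorb (72.2 to 93.9%) and 47.5% without it (34.3 to 60.9%), and Pdyn in 37.5% (24.0 to 52.7%) and 78.0% (65.3 to 87.7%). Esr1 was in 60.4% and 57.6%, with intervals that overlapped. In the principal DR dissection 28 gated cells had Rorb and 34 did not, and 42 of the 51 genes and 49 of the 55 lay on the same side there. The share of all compared genes on each side is not given here, so these counts are no support.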

How the data were processed

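The authors aligned the reads to mm10 (GRCm38) with STAR 2.6.1a, counted them on genes with HTSeq 0.11.2 and deposited CPM per cell for 53263 genes. The submitters' processing notes also name bcl2fastq 2.19.0.316. Of 1536 labelled cells, 999 are in the table and the rest were not analysed here. No cell was removed, and doublets were not called because each well was sorted to hold a single cell. CPM were analysed as deposited in Python 3.11.15 with NumPy 2.4.6, pandas 2.3.3 and SciPy 1.17.1, and figures were drawn with matplotlib 3.10.9. Depth, thinning and size factors used reads inferred by taking the smallest nonzero CPM of a cell as a single read. That this holds in every cell is not certain. Genes with a read in at least 3 cells (25522) were kept. Compared genes had a mean of both sets of at least 5 CPM, and a plate entered with at least 3 cells of each set. Fold changes are log2 ratios of mean CPM plus 1, which understates changes of low genes, averaged over plates with their SD. The 3 gate genes were left out. The contrast was run on simulated cells without plate effects, with changes larger than the 2-fold limit in genes of at least 20 CPM. That run does not cover smaller changes or lower genes.

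Members, lists and tests were chosen with earlier results of these data known. Genes were named by a rule: list genes by counts and then by the largest ratios, 20 called genes per direction against the other cells and 10 against each like set, leaving out gene models without a proper name, and the 15 most variable genes. Of 696 listed genes 694 are in the table, and Nkx2-2 and Gnai3 were not analysed here. Genes were located with GENCODE M21, and 52 of 140 named genes overlap a gene on the opposite strand, Hcrtr2, Htr5b, Chrm2 and Plcb1 among them. Counting ignored strand, so their values are uncertain. Alternatives were other gates, pseudocounts, filters, scalings and plates left out. Values of a few called genes are not reported here.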

Additional observations from a re-analysis of the deposited data

Results flagged for a closer look

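For 4 genes called in the mixed dissection, every plate of the principal DR dissection went the opposite way. Their ratios of gated over other cells on its 4 plates were -0.58 for Nhsl1, -1.23 for Amigo2, 0.77 for Cav2 and 1.51 for Nr2f2, against 1.16, 1.03, -1.04 and -1.18 over 9 plates of the mixed dissection. Nhsl1 had 18.9 against 6.19 CPM in the mixed dissection and 20.6 against 30.9 CPM in the principal DR, so its level in the gated cells was close and that of the comparison cells was not. Cav2, a caveolin, had 34.0 against 80.6 CPM and 44.1 against 26.8 CPM. The levels of Amigo2 and Nr2f2 are given above. The difference between dissections was not tested, since each is 1 sample, and the comparison cells of the dissections are different populations, so a change in the gated cells and one in the cells around them cannot be told apart.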

How the results depend on the processing

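The share of members ran from 14.3 to 16.3% with a plate left out. With a plate left out, the genes higher and lower than in the other cells were 36 to 44 and 90 to 105, against Crhr2-only cells 9 to 15 and 15 to 26 (the 26 without SER60), and against Npy2r-only cells 153 to 184 and 138 to 178 (the 178 without SER51). A pseudocount of 5 CPM gave 23 genes higher than in the other cells, 6 against Crhr2-only cells, and 59 higher and 69 lower against Npy2r-only cells. Differences of mean log2(CPM + 1) gave 211 higher and 44 lower than the other cells, 41 higher against Crhr2-only cells and 394 higher against Npy2r-only cells, where 82.6% of calls were then higher in place of 52.3%, and 78.8% in place of 40.0% against Crhr2-only cells. A filter at 20 CPM, with 6006 genes left, gave 24 higher and 33 lower, 5 lower against Crhr2-only cells, and 38 and 46 against Npy2r-only cells. No filter gave 179 lower, 24 lower against Crhr2-only cells and 303 higher against Npy2r-only cells. Pooling cells over plates gave 21 and 47 against Crhr2-only cells and 252 lower against Npy2r-only cells. Plates with at least 5 cells, of which 3 were left there, gave 203 and 223. Size factors gave 9 lower against Crhr2-only cells. Thinned to 250000 reads, 37 genes were higher and 91 lower than in the other cells, 35 and 84 of them the same genes.

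Of the values of the named genes under the alternatives, 2178 kept their direction within the spread between plates, 153 moved beyond it, and 6 changed sign, each in the principal DR dissection, an alternative added after the data were seen: Piezo2 at 0.13, Egr1 at 0.063, Kcns2 at 0.064, Nr2f2 at 1.51, Rxfp1 at 0.51 and Stxbp6 at 0.39. Over all 135 called genes, 36 of 41 and 85 of 94 kept their side there, where 43.8% of all compared genes were above 0. Apart from the filters and plates left out, the cause of these moves was not tested. No paired analysis was possible because replicate numbers only name cells, beyond the comparison within plates that every contrast already makes. A gene at 5 CPM rests on few reads per cell, and the contrast with Npy2r-only cells rests on 24 of them on 5 plates.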
